A study of Mus musculus with 9 samples.

Results

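The nuclear-encoded subunits of the mitochondrial respiratory chain and ATP synthase were examined as a group in 3 kinds of mouse cells. Members were the genes whose array row carried a single symbol beginning with Ndufa, Ndufb, Ndufc, Ndufs or Ndufv plus a number, Cox4 to Cox8, Uqcr or Atp5. This gave 77 of the 19938 genes measured: 35 of complex I, 8 of complex III, 17 of complex IV and 17 of complex V. The row with the highest mean over the 9 arrays stood for a gene with several rows. The rule goes by name and so took in 2 genes that are not structural subunits, Ndufa4l2 and Cox7a2l. Ndufa4 is counted with complex I by its name, although its protein is now placed in complex IV.

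The electrons of NADH enter at complex I and pass through complex III and cytochrome c to complex IV, where oxygen is reduced. The protons pumped along the way drive ATP synthase, complex V. Most subunits are encoded in the nucleus, and some of them, mainly in complex IV, exist as a common form and a form restricted to heart and skeletal muscle, lung or testis. Pluripotent cells are known for a strong reliance on glycolysis, while adult heart tissue depends on respiration.

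The study hybridised total RNA of adult cardiac fibroblasts, of cardiac fibroblasts labelled dedifferentiated (by a protein-based method, going by the series title) and of embryonic stem (ES) cells to Affymetrix Mouse Gene 1.0 ST arrays. All cells are labelled as coming from C57BL/6 mice, and each group had 3 arrays. Beyond "adult", the labels used here give no age, and they give no sex, passage or number of animals. Nothing says that the 3 samples of a group were separate cultures or animals, so the p-values speak only for the variation among these arrays, part or all of which may be technical. For the fibroblasts the source label names ES cells as well; the titles decided the groups. Array medians ranged from 4.647 to 4.859 (log2). All 8 fibroblast markers examined were lower, and all 7 pluripotency markers higher, in dedifferentiated and in ES cells than in fibroblasts. Of 6 macrophage markers 5 were also lower and 1 higher in both, and of 5 endothelial markers 4 were higher in dedifferentiated and 1 in ES cells. The macrophage markers averaged 5.92 to 6.13 on the fibroblast, 4.49 to 4.59 on the dedifferentiated and 4.69 to 4.77 on the ES arrays, and the endothelial markers 4.73 to 4.98, 5.79 to 5.9 and 5.14 to 5.34; their part in the differences of the members was not tested. The inactive-X transcript Xist was at 7.24 to 7.39 (log2) on the fibroblast arrays and at 2.78 to 3.49 on the other arrays, and the Y-linked Eif2s3y at 3.45 to 3.69 and 7.47 to 8.18. The comparisons with fibroblasts are therefore also comparisons of cells that differ in sex-linked transcripts, and 3 members, Ndufa1, Ndufb11 and Cox7b, lie on the X chromosome.

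Values are log2 expression values, so that a difference of 1 is a 2-fold difference. Calls required an adjusted p under 0.05, with Benjamini-Hochberg adjustment over all 19938 genes in 1 limma fit of the 9 arrays. "Rose" and "fell" below mean a called difference between group means, in these bulk samples, where fewer cells of a type and less RNA per cell cannot be told apart.

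The differences of most respiratory subunit genes were small, and the largest belonged to a few paralogous subunits. The 95% interval of the difference from fibroblasts lay within 1 log2 unit of 0 for 71 of 77 members in dedifferentiated and for 74 in ES cells. Of all 19938 genes, 14881 and 14799 had such an interval. In dedifferentiated cells 29 of 77 were higher than in fibroblasts and 7 lower, where 25.0% of all genes were higher and 22.4% lower. The share of members was 37.7% higher and 9.09% lower, and their median difference was 0.18 log2 units, beside 0.01 over all genes. In ES cells 24 were higher and 12 lower (31.2% and 15.6%), where 26.1% of all genes were higher and 22.9% lower; the median difference was 0.06, beside 0.02. Both comparisons use the same fibroblast arrays. Dedifferentiated and ES cells differed in 11 members, with 8 higher and 3 lower in dedifferentiated cells, where 11.2% of all genes were higher and 10.0% lower. The count of 8 was 4 without dedifferentiated replicate 3. Arrays of the groups compared did not overlap in 51 members between dedifferentiated cells and fibroblasts, in 39 between ES cells and fibroblasts and in 24 between dedifferentiated and ES cells, where 54.7%, 51.9% and 32.6% of all genes did not.

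Large differences were rare. With a further requirement of at least 1 log2 unit, Cox6b2 and Cox7a1 were higher in both comparisons with fibroblasts, where 8.79% of all genes were higher in dedifferentiated cells and 8.85% in ES cells. Ndufa4l2 was the only member lower by that much, in dedifferentiated cells, where 10.1% of all genes were; in ES cells 10.4% of all genes and 0 members were, and 14 members were lower than in fibroblasts at an unadjusted limma p under 0.05. No member reached that size between dedifferentiated and ES cells, where 1.01% of all genes were higher and 0.547% lower. The 95% interval of this last difference lay within 1 log2 unit of 0 for all 77 members and within 0.5 for 65 of them. Of all 19938 genes, 19187 had an interval within 1 log2 unit of 0 and 14390 within 0.5. Respiratory subunit genes are bright on the array, and bright genes were called more often. Among the 9969 genes with a mean over all arrays above the median, 42.2% were higher and 34.4% lower in dedifferentiated cells than in fibroblasts, and of the 71 members among them 34 (47.9%) were higher and 6 (8.45%) lower. In ES cells 42.8% of those genes were higher and 35.0% lower, against 24 (33.8%) and 12 (16.9%) of the 71 members. Between dedifferentiated and ES cells 22.6% of those genes were higher and 19.3% lower, against 9 (12.7%) and 3 (4.23%) of the 71 members.

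The split between higher and lower calls changed under a further quantile normalization of the deposited values, and little under median centring. The quantile normalization gave 42 higher and 6 lower in dedifferentiated cells, where 27.1% of all genes were higher and 22% lower. It gave 32 higher and 8 lower in ES cells, where 28.8% of all genes were higher and 22.2% lower. Thus 80.0% of the calls in ES cells were higher, beside 66.7% as deposited. Between dedifferentiated and ES cells it gave 5 higher and 5 lower, where 11.4% of all genes were higher and 11.7% lower. There 72.7% of the calls were higher as deposited. Median centring gave 29 higher and 7 lower in dedifferentiated cells, 23 and 12 in ES cells, and 7 and 3 between dedifferentiated and ES cells. The plot of differences by complex shows all 77 members.

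**Figure D1:**
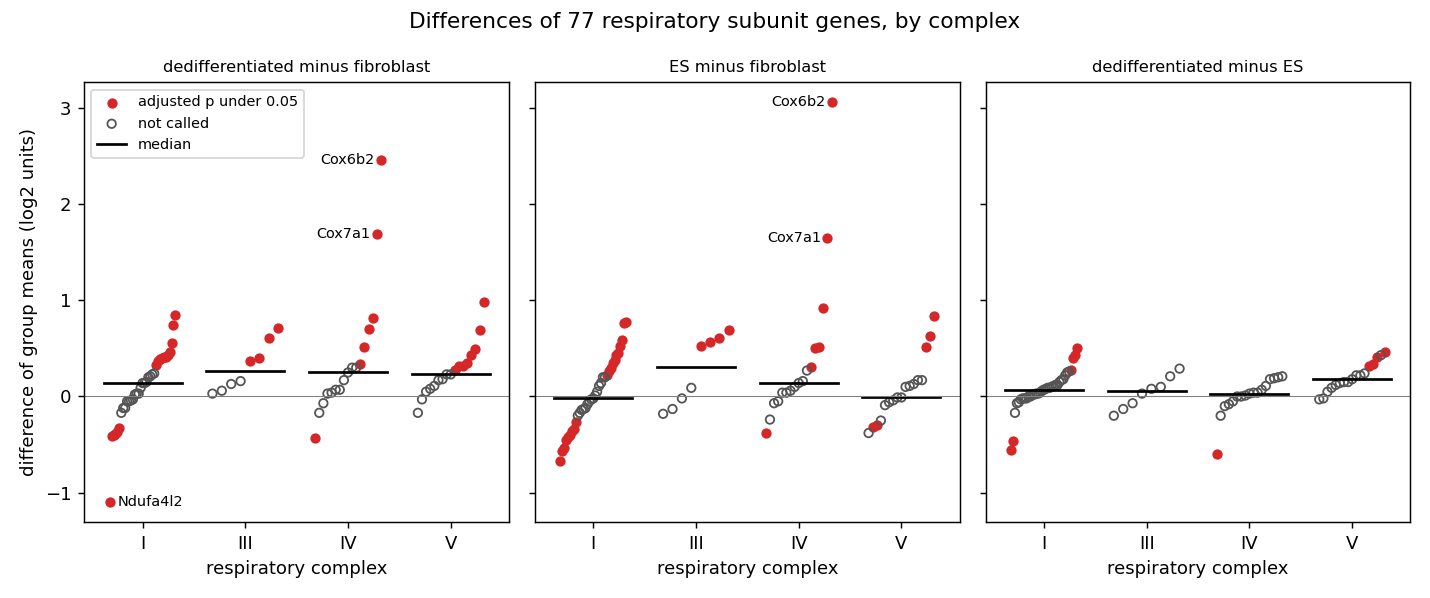
Difference of group means in log2 units (vertical axis) for each of the 77 member genes, by respiratory complex (horizontal axis), in the 3 comparisons. Filled points are called at an adjusted p under 0.05, open points are not, bars are medians, and genes that differ by at least 1 log2 unit are named; all points of the comparison of dedifferentiated with ES cells lie between -0.6 and 0.5.

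Complex IV, cytochrome c oxidase, held the largest differences of the group, and these belonged to tissue isoforms. Cox6b2, the testis form of a subunit that faces the intermembrane space, was at 5.17, 4.64 and 4.98 (log2) on the fibroblast arrays, at 7.26, 7.48 and 7.43 on the dedifferentiated arrays, and at 7.94, 8.08 and 7.95 on the ES arrays. The 3 groups did not overlap, with ES cells highest and fibroblasts lowest. Cox6b2 rose by 2.46 log2 units in dedifferentiated cells (5.5-fold, 95% interval 2.18 to 2.73, limma adjusted p = 1.3e-08) and by 3.06 in ES cells (8.34-fold, 2.79 to 3.33, adjusted p = 1.9e-09). The fibroblast values of Cox6b2 lay near the array medians and carry no detection call, so these folds are against a level not shown to be above background. Cox6b2 was lower in dedifferentiated than in ES cells by a difference of -0.6 (-0.88 to -0.33, adjusted p = 0.0054). Its common counterpart Cox6b1 had means of 10.18 ± 0.049, 10.22 ± 0.048 and 10.22 ± 0.073 (SD, n = 3 each) in fibroblasts, dedifferentiated and ES cells, and its arrays overlapped between all groups. Of complex IV, Cox6b1 had the smallest maximum difference over the 3 comparisons. It differed by 0.04 in both comparisons with fibroblasts (95% interval -0.12 to 0.2 in each).

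Cox7a1, the heart and skeletal muscle form of subunit 7a, was at 5.01, 5.7 and 5.32 in fibroblasts, at 6.95, 7.1 and 7.03 in dedifferentiated cells and at 7.01, 7.11 and 6.85 in ES cells. Every fibroblast array lay below every array of the dedifferentiated and ES groups, whose values overlapped with each other. The rise was 1.69 log2 units in dedifferentiated cells (3.22-fold, 95% interval 1.36 to 2.01, limma adjusted p = 1.5e-06) and 1.65 in ES cells (3.13-fold, 1.32 to 1.97, adjusted p = 1.7e-06). As for Cox6b2, these folds are against fibroblast values that carry no detection call and are not shown to be above background. Cox7a2, the common form, rose by 0.34 in dedifferentiated cells (adjusted p = 0.0023), and its difference in ES cells was 0.16 (adjusted p = 0.099), which was called under a further quantile normalization (0.25, adjusted p = 0.012). Cox7a2l, a related protein that links complexes III and IV into supercomplexes, rose by 0.5 in ES cells (adjusted p = 0.0047) and differed by 0.3 in dedifferentiated cells (adjusted p = 0.065).

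The other muscle isoforms of complex IV were not called higher. Cox6a2 had means of 5.29 ± 0.091 for fibroblasts, 5.12 ± 0.054 for dedifferentiated and 5.05 ± 0.21 for ES cells (SD, n = 3 each), with differences from fibroblasts of -0.17 (adjusted p = 0.22) and -0.24 (adjusted p = 0.084). Cox8b had means of 4.13 ± 0.034, 4.06 ± 0.026 and 4.06 ± 0.24, and its difference was -0.07 in both comparisons (adjusted p = 0.68 each). Without ES replicate 1, at 4.34 against 3.94 and 3.9 for the others, Cox8b was called lower in ES cells (-0.21, adjusted p = 0.025). Their values carry no detection call, so these low levels cannot be set against a background. Of 13 cardiomyocyte markers, 5 were higher and 1 lower in dedifferentiated cells than in fibroblasts, and 6 higher and 2 lower in ES cells. Their mean log2 level was 4.59 to 4.75 on the fibroblast arrays, 4.76 to 4.81 on the dedifferentiated arrays and 4.71 to 4.82 on the ES arrays, and the myosin genes Myh6 and Myh7 had group means of 4.01 to 4.13 and 4.53 to 5.02. The part of these markers in the rise of Cox7a1 was not tested.

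The other testis isoforms of complex IV were not called. Cox7b2 had group means of 3.13, 3.2 and 3.08 and Cox8c of 4.6, 4.63 and 4.71 in fibroblasts, dedifferentiated and ES cells, and neither was called in any comparison (limma adjusted p of 0.41 to 0.89). These low values carry no detection call and are not shown to be above background in any group. Of 6 germ cell markers, 3 were higher in dedifferentiated cells and in ES cells than in fibroblasts, with Sycp3 up by 3.14 and 3.27 and Ddx4 up by 1.91 and 2.8. Their fibroblast means, 2.8 for Sycp3 and 4.34 for Ddx4, are likewise not shown to be above background. The mean level of the 6 was 3.55 to 3.82 on the fibroblast arrays, 4.68 to 4.74 on the dedifferentiated arrays and 4.69 to 4.93 on the ES arrays. The markers of late spermatids Tnp1 and Prm1 were not called. The part of these markers in the rise of Cox6b2 was not tested.

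**Figure D2:**
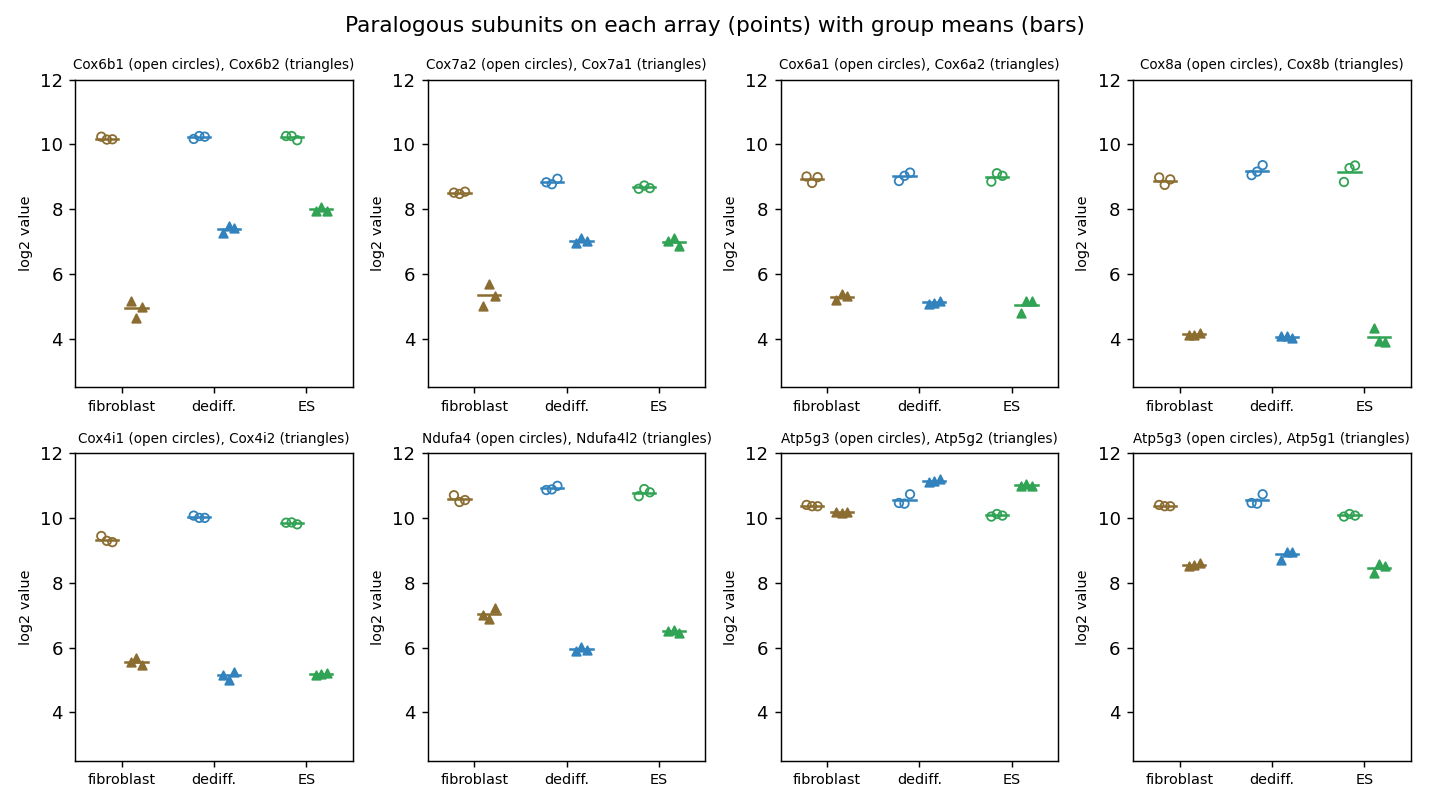
Log2 value (vertical axis) of paralogous subunits on each of the 3 arrays per group (horizontal axis), with open circles for the first gene named in a panel, filled triangles for the second and short bars for group means. Cox6b2 and Cox7a1 lie higher on all dedifferentiated and ES arrays than on any fibroblast array, while Cox6a2 and Cox8b are at most 5.37 on every array; heights of different genes are not comparable.

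Cox4i2, a form of subunit 4 known from lung and from cells short of oxygen, moved the opposite way to its common counterpart. It was at 5.56, 5.68 and 5.47 in fibroblasts, at 5.16, 5.01 and 5.25 in dedifferentiated cells and at 5.16, 5.19 and 5.21 in ES cells. It fell by 0.43 in dedifferentiated cells (limma adjusted p = 0.0012) and fell by 0.38 in ES cells (adjusted p = 0.0027), without overlap of the arrays. The low values of Cox4i2 carry no detection call and are not shown to be above background in any group. Cox4i1 rose by 0.7 (95% interval 0.53 to 0.86, adjusted p = 8.7e-06) and 0.51 (0.34 to 0.68, adjusted p = 0.00011). Cox5a, an early-assembling subunit, rose by 0.82 and 0.92 (adjusted p = 1.7e-05 and 6.5e-06), from 8.26, 8.03 and 8.07 in fibroblasts to 8.86, 8.93 and 9.03 in dedifferentiated cells and 9.05, 9.17 and 8.9 in ES cells. Cox7b rose by 0.52 (adjusted p = 0.0011) and 0.31 (adjusted p = 0.024), and the latter call was lost without fibroblast replicate 2 (0.084) or 3 (0.093) or ES replicate 2 (0.1). Of the 10 members of complex IV other than the 7 tissue isoforms, 4 were higher and 0 lower in each comparison with fibroblasts by the limma test. This stood beside 25.0% and 26.1% of all genes higher and 22.4% and 22.9% lower. Of the genes above the median level, 42.2% and 42.8% were higher, and 34.4% and 35.0% lower. In ES cells the 4 included Cox7a2l, which is not a structural subunit. Limma called 0 of the 10 in dedifferentiated against ES cells, where 11.2% of all genes were higher and 10.0% lower. At an unadjusted p under 0.05, 2 were called there. At that level 8 were higher in dedifferentiated and 4 in ES cells than in fibroblasts, and 0 were lower.

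The change of an isoform relative to its counterpart was taken from the difference of their log2 values on each array, over 10 pairs and 3 comparisons. The smallest p that an exact permutation test of 3 against 3 arrays can give is 0.1, which becomes 0.17 after adjustment over the 30 tests, so none could be called. The ratio of Cox6b2 to Cox6b1 was higher by 2.42 log2 units in dedifferentiated and by 3.02 in ES cells than in fibroblasts, and that of Cox7a1 to Cox7a2 by 1.35 and 1.48. The ratio of Cox4i2 to Cox4i1 differed by -1.12 and -0.89, and that of Ndufa4l2 to Ndufa4 by -1.43 and -0.74. For each of these values the arrays of the 2 groups did not overlap (exact two-sided permutation p = 0.1). Cox4i2 on all arrays, and Cox6b2 and Cox7a1 on the fibroblast arrays, were not shown to be above background, which limits these ratios. The ratios of Cox6a2 to Cox6a1 and of Cox8b to Cox8a differed by -0.25 and -0.37 in dedifferentiated cells (exact permutation p = 0.2 and 0.1).

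Promoter sequences are shown for the 2 complex IV isoforms that rose, since no other member rose as far. They are the 120 bases before the start site in RefSeq (build GRCm38.p6), in the direction of the gene. Cox6b2 is at chr7:4753095-4753214 on the minus strand and Cox7a1 at chr7:30184051-30184170 on the plus strand. Capitals mark a CCAAT box on either strand.
Cox6b2: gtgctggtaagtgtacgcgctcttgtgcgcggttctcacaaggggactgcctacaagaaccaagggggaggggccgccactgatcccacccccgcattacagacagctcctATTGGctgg
Cox7a1: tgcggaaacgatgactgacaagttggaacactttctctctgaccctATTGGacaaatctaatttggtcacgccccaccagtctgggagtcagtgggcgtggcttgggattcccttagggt
The CCAAT box was the only one of the motifs searched that lay in either stretch, and 37.4% of all 32851 promoter windows of 300 bases hold it.

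Complex V, ATP synthase, had only higher calls in dedifferentiated cells and calls in both directions in ES cells, against fibroblasts. The lower calls in ES cells, of Atp5g3 and Atp5j, were lost under a further quantile normalization. Under some other alternatives Atp5j was called lower in dedifferentiated cells too. Of 17 members, 8 were higher and 0 lower in dedifferentiated cells by the limma test (median difference 0.23; 9 and 1 at an unadjusted p under 0.05), and 3 were higher and 2 lower in ES cells (median -0.01). The 47.1% higher and 0 lower in dedifferentiated cells stood beside 25.0% and 22.4% of all genes, and 42.2% and 34.4% of the genes above the median level. The 17.6% higher and 11.8% lower in ES cells stood beside 26.1% and 22.9% of all genes, and 42.8% and 35.0% of the genes above the median level. Of the 5 measured subunits of the catalytic F1 head, 4 were higher in dedifferentiated and 2 in ES cells, to be read beside the same shares. Atp5a1 and Atp5c1, the alpha and gamma subunits, rose by 0.69 and 0.49 in dedifferentiated cells (adjusted p = 1.6e-05 and 0.00019) and by 0.63 and 0.52 in ES cells (adjusted p = 3.1e-05 and 0.00012). The delta subunit Atp5d had the smallest maximum difference of the complex, with values of 0.08 and 0.1 (adjusted p = 0.42 and 0.31), but was called higher in both under a further quantile normalization (0.23 and 0.37, adjusted p = 0.014 and 0.00059).

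The c-ring, which turns as protons pass, is built from 1 mature protein encoded by 3 genes that differ in the import sequence, and these genes diverged. Atp5g2 was at 10.2, 10.16 and 10.18 in fibroblasts, at 11.12, 11.15 and 11.21 in dedifferentiated cells and at 11, 11.06 and 11.01 in ES cells. It had the largest rise of complex V, 0.98 log2 units in dedifferentiated cells (1.97-fold, 95% interval 0.83 to 1.13, limma adjusted p = 1.8e-07) and 0.84 in ES cells (1.79-fold, 0.69 to 0.99, adjusted p = 6.5e-07). Its 3 rows on the array differed from fibroblasts by 0.93 to 1 in dedifferentiated cells and by 0.83 to 0.88 in ES cells. Atp5g3 was at 10.41, 10.37 and 10.37 in fibroblasts, at 10.47, 10.45 and 10.74 in dedifferentiated cells and at 10.05, 10.13 and 10.08 in ES cells. It fell by 0.3 in ES cells against fibroblasts (adjusted p = 0.014), a call lost under a further quantile normalization (-0.12, adjusted p = 0.29). It was higher in dedifferentiated than in ES cells by 0.46 (adjusted p = 0.003). Atp5g1 rose by 0.32 in dedifferentiated cells (adjusted p = 0.017), a call lost without fibroblast replicate 1 (0.053) or dedifferentiated replicate 2 (0.068) or 3 (0.072), and differed by -0.09 in ES cells (adjusted p = 0.49). It was higher in dedifferentiated than in ES cells by 0.41 (adjusted p = 0.01; 0.052 without dedifferentiated replicate 3). The ratio of Atp5g2 to Atp5g3 was 0.81 log2 units higher in dedifferentiated and 1.14 higher in ES cells than in fibroblasts (exact permutation p = 0.1 each).

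The promoters of Atp5g2, at chr15:102671048-102671167, and Atp5g3, at chr2:73911327-73911446, are printed to compare these 2 genes. Both lie on the minus strand of GRCm38.p6 and cover the 120 bases before the start site of the RefSeq window. For Atp5g3 this start is inside the annotated gene, which spans chr2:73908447-73912464, and not at its outer end. In Atp5g2 the capitals mark 2 overlapping matches, on opposite strands, to the site core of nuclear respiratory factor 1 (NRF1). In Atp5g3 they mark a CCAAT box and then a site of the oestrogen-related receptors, which include the pluripotency factor Esrrb.
Atp5g2: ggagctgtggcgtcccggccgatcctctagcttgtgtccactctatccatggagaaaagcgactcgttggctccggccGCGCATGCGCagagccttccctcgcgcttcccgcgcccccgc
Atp5g3: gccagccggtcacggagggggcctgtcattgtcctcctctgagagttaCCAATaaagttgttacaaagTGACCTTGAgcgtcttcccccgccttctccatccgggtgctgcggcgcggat

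Among the other members of complex V, Atp5o and Atp5k were called between dedifferentiated and ES cells, and Atp5j was called only between ES cells and fibroblasts. Atp5o, a stalk subunit, was higher by 0.43 in dedifferentiated cells than in fibroblasts (adjusted p = 0.0014) and by 0.32 than in ES cells (adjusted p = 0.023), a call lost without dedifferentiated replicate 3 (0.11) or ES replicate 2 (0.075) and under a further quantile normalization (0.053). Atp5k, a small membrane subunit, was higher by 0.28 and 0.34 in the same comparisons (adjusted p = 0.034 and 0.027). The first of these calls was lost without any one of the 3 fibroblast arrays (0.06 to 0.1) or without dedifferentiated replicate 2 (0.13) or 3 (0.14), the second without dedifferentiated replicate 2 (0.11) or 3 (0.12) or ES replicate 3 (0.09) and under a further quantile normalization (0.064). Atp5j, also of the stalk, fell by 0.32 in ES cells against fibroblasts (adjusted p = 0.0027) and differed by -0.03 (adjusted p = 0.84) after a further quantile normalization. In dedifferentiated cells Atp5j differed from fibroblasts by -0.17 (limma adjusted p = 0.082), without overlap of the arrays. It was called lower there with an intensity trend (0.04), with array weights (0.033), with only the 2 groups compared (0.029) or without ES replicate 1 (0.04). Array weights also called Atp5j higher in dedifferentiated than in ES cells (0.16, limma adjusted p = 0.038). In all, 4 of 17 members were higher and 0 lower in dedifferentiated than in ES cells by the limma test (6 and 0 at an unadjusted p under 0.05). This share of 23.5% stood beside 11.2% of all genes and 22.6% of the genes above the median level. The 0 lower stood beside 10.0% and 19.3%.

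Complex III, which passes electrons from ubiquinol to cytochrome c, had 4 of 8 members higher and 0 lower in each comparison with fibroblasts by the limma test, with median differences of 0.26 and 0.31. The counts were also 4 and 0 at an unadjusted p under 0.05. The 4 of 8 higher stood beside 25.0% and 26.1% of all genes, and beside 42.2% and 42.8% of the genes above the median level. For the 0 lower these shares were 22.4% and 22.9%, and 34.4% and 35.0%. The core proteins Uqcrc1 and Uqcrc2 rose by 0.61 and 0.4 in dedifferentiated cells and by 0.69 and 0.53 in ES cells (adjusted p of 0.00024 to 0.0019). The hinge protein Uqcrh rose by 0.37 and 0.57 (adjusted p = 0.0081 and 0.00041). Uqcr10, a small subunit, was at 7.29, 7.39 and 7.34 in fibroblasts, at 7.99, 8.1 and 8.06 in dedifferentiated cells and at 7.9, 8.02 and 7.95 in ES cells, so that dedifferentiated and ES cells overlapped and lay above all fibroblast arrays. It rose by 0.71 (95% interval 0.55 to 0.87, adjusted p = 5.1e-06) and 0.61 (0.46 to 0.77, adjusted p = 1.7e-05). The Rieske iron-sulphur protein Uqcrfs1 had the smallest maximum difference of the complex, with values of 0.06 and -0.02 (adjusted p = 0.64 and 0.88). Between dedifferentiated and ES cells limma called 0 members of complex III, where 1 had an unadjusted p under 0.05. In that comparison 11.2% of all genes were higher and 10.0% lower, and 22.6% and 19.3% of the genes above the median level. A further quantile normalization called Uqcrc2 and Uqcrh lower in dedifferentiated cells there (-0.21 and -0.28, adjusted p = 0.032 and 0.037).

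Complex I, the NADH dehydrogenase, had both higher and lower members. Of 35 members, 11 were higher and 6 lower in dedifferentiated cells than in fibroblasts (median difference 0.14), and 11 were higher and 9 lower in ES cells (median -0.02). The shares in ES cells were 31.4% higher and 25.7% lower, beside 26.1% and 22.9% of all genes. Those in dedifferentiated cells were 31.4% and 17.1%, beside 25.0% and 22.4%. Of the genes above the median level, 42.8% were higher and 35.0% lower in ES cells, and 42.2% and 34.4% in dedifferentiated cells. Of the 6 measured core subunits, which carry the flavin or bind iron-sulphur clusters or line the quinone site, 4 were higher and 0 lower in each of these comparisons by the limma test, as at an unadjusted p under 0.05. These were Ndufv1, Ndufv2, Ndufs7 and Ndufs8, with differences of 0.37 to 0.46 in dedifferentiated and 0.22 to 0.53 in ES cells. The call of Ndufv2 in dedifferentiated cells (0.46, adjusted p = 0.015) was lost without fibroblast replicate 2 (0.068) or 3 (0.051) or dedifferentiated replicate 1 (0.069). The other 29 members, accessory subunits by name, had 7 higher and 6 lower in dedifferentiated and 7 higher and 9 lower in ES cells. The counts of core and of accessory subunits are to be read beside the same shares.

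The largest rises among accessory subunits were in Ndufs6 and Ndufb5. Ndufs6, a zinc-binding subunit needed late in the assembly of complex I, was at 7.67, 7.45 and 7.73 in fibroblasts, at 8.43, 8.41 and 8.56 in dedifferentiated cells and at 8.51, 8.41 and 8.24 in ES cells. It rose by 0.85 (1.8-fold, 95% interval 0.63 to 1.07, limma adjusted p = 1.6e-05) and 0.77 (1.71-fold, 0.55 to 0.99, adjusted p = 3.6e-05). Ndufb5, a subunit of the membrane arm, rose by 0.74 and 0.76 (adjusted p = 8.9e-05 and 7.2e-05), and Ndufa7 by 0.56 and 0.59 (adjusted p = 0.00057 and 0.00039).

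The falls were also in members counted as accessory by name, among them Ndufa4l2, which is not a structural subunit. Ndufa4l2, a relative of Ndufa4 that is induced under low oxygen through HIF1 and lowers respiration, was at 7.02, 6.88 and 7.23 in fibroblasts, at 5.88, 6.01 and 5.94 in dedifferentiated cells and at 6.51, 6.55 and 6.45 in ES cells. All 3 groups were apart, with ES cells in the middle. It fell by 1.1 in dedifferentiated cells (2.14-fold, 95% interval -1.3 to -0.89, limma adjusted p = 1.1e-06) and fell by 0.54 in ES cells (1.45-fold, -0.74 to -0.33, adjusted p = 0.00042), and the difference of dedifferentiated from ES cells was -0.56 (-0.77 to -0.35, adjusted p = 0.0014). Ndufa4 itself rose by 0.33 in dedifferentiated cells (adjusted p = 0.0081) and differed by 0.2 in ES cells (adjusted p = 0.078). Ndufa4 was called in ES cells too under a further quantile normalization (0.47, adjusted p = 0.00014), and without fibroblast replicate 1 (0.26, adjusted p = 0.041) or ES replicate 1 (0.26, adjusted p = 0.029).

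Ndufa5, at 7.57, 7.38 and 7.29 in fibroblasts, was at 7.05, 6.97 and 7.06 in dedifferentiated cells and at 6.68, 6.87 and 6.68 in ES cells. It fell by 0.39 (limma adjusted p = 0.0038) and fell by 0.67 (adjusted p = 6.2e-05), and was thus lowest in ES cells. Ndufa3 fell by 0.41 and fell by 0.57 (adjusted p = 0.00076 and 5.2e-05), Ndufa2 fell by 0.33 and fell by 0.45 (adjusted p = 0.0089 and 0.0012), and Ndufa8 fell by 0.4 and fell by 0.34 (adjusted p = 0.0018 and 0.0055). Ndufb3 had the smallest maximum difference of the complex, with values of 0.03 and 0.01 (adjusted p = 0.9 and 0.98), although its fibroblast arrays ranged from 6.51 to 7.05.

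Dedifferentiated and ES cells differed in 6 members of complex I, which is no more than the shares of all genes. The 11.4% higher and 5.71% lower in dedifferentiated cells stood beside 11.2% and 10.0% of all genes, and 22.6% and 19.3% of the genes above the median level. Ndufc1 (by 0.5, limma adjusted p = 0.0048), Ndufa1 (by 0.43, adjusted p = 0.0075), Ndufb7 (by 0.4, adjusted p = 0.0026) and Ndufa5 (by 0.28, adjusted p = 0.049) were higher in dedifferentiated cells. The first 3 of these were also lower in ES cells than in fibroblasts, by differences of -0.42, -0.4 and -0.27 (adjusted p of 0.0035 to 0.0098), while their difference between dedifferentiated cells and fibroblasts was 0.09, 0.03 and 0.14. The call of Ndufb7 in ES cells against fibroblasts was lost under a further quantile normalization (-0.18, adjusted p = 0.097). The call of Ndufa5 between dedifferentiated and ES cells was lost under that normalization (0.064), median centring (0.069), array weights (0.062), an intensity trend (0.05) or robust variances (0.051), and without fibroblast replicate 2 (0.06), dedifferentiated replicate 1 (0.14), 2 (0.083) or 3 (0.15), or ES replicate 1 (0.1) or 3 (0.13). Ndufa4l2 and Ndufa6 were lower, the latter by a difference of -0.46 (adjusted p = 0.011), which was lost without dedifferentiated replicate 1 (0.055). Ndufa6 rose by 0.43 in ES cells over fibroblasts (adjusted p = 0.0054). The heat map of all arrays sets these members beside the rest.

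**Figure D3:**
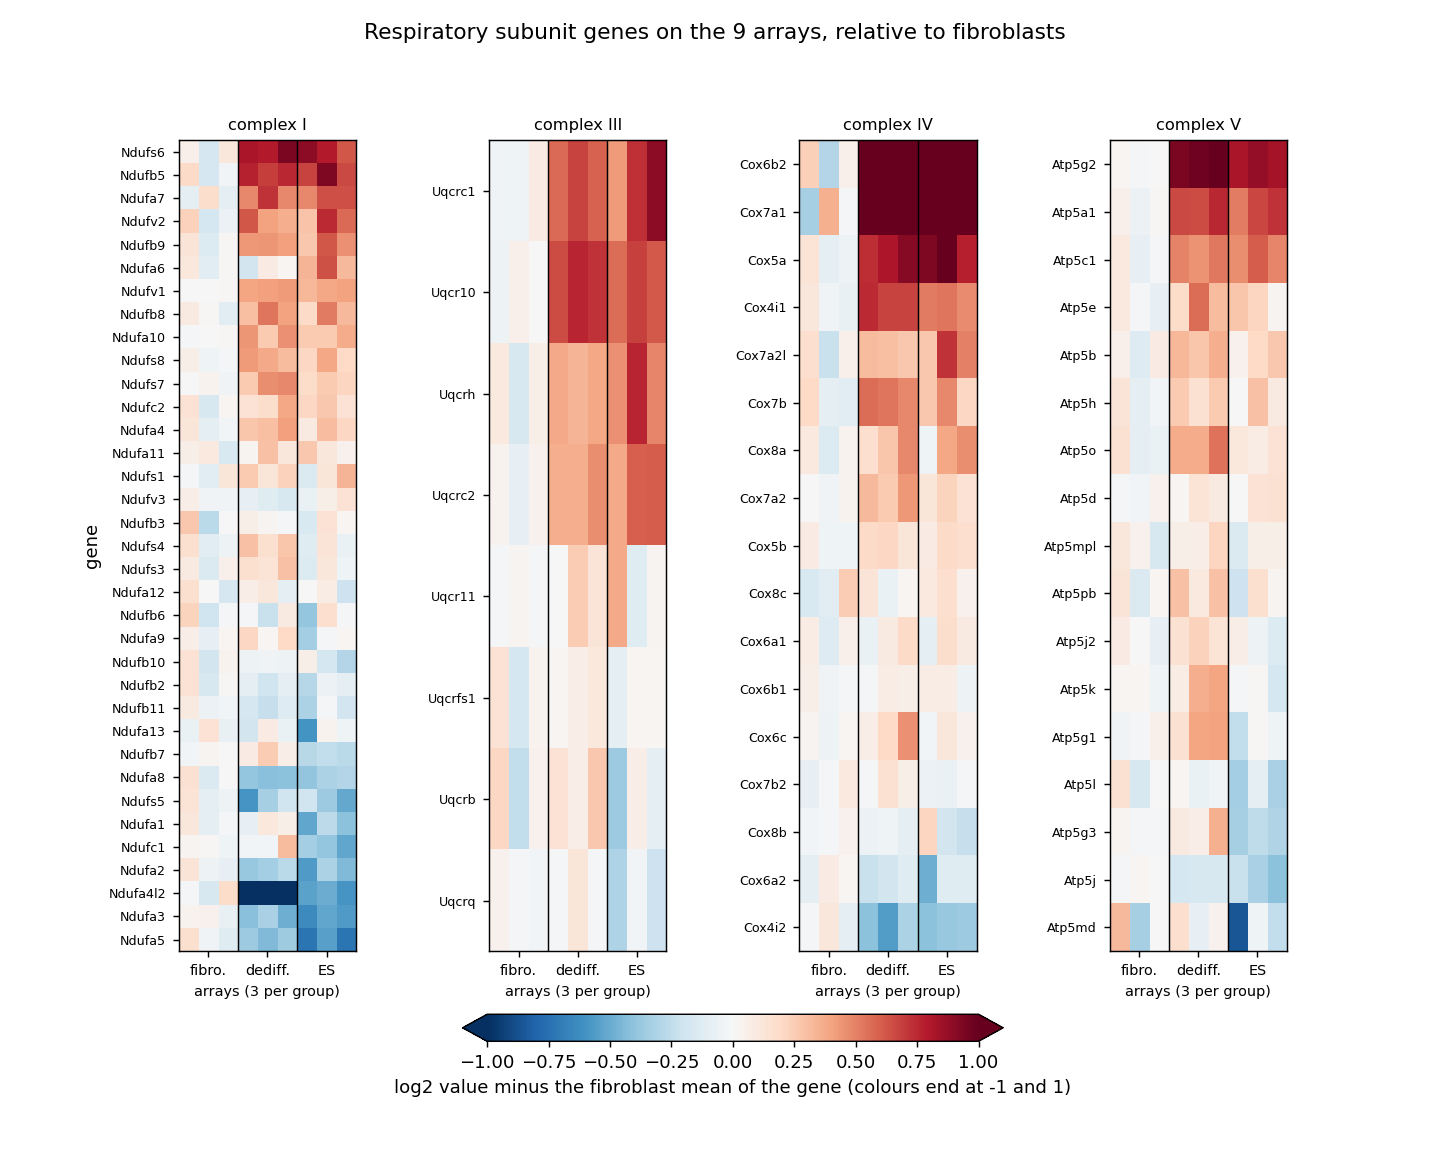
Log2 value of each member gene on each of the 9 arrays minus the mean of its fibroblast arrays (colour, ending at -1 and 1), by complex, with genes in rows ordered by the difference of ES cells from fibroblasts and arrays in columns. Complex III has 4 rows that are red on all dedifferentiated and ES arrays, while complex I runs from red at Ndufs6 to blue at Ndufa5.

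Members that no comparison called included Cox6a1, Cox6b1, Ndufs1 and Ndufs3. Of the 77 members, 16 had more than 1 row, and the differences of their rows lay within 0.25 log2 units of each other in every comparison, with the widest gaps at Cox7b and Ndufc1. Several rows of 1 symbol may include retrocopies of the gene, which the array cannot tell from it with certainty.

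Shared promoter motifs were looked for in the 300 bases around the RefSeq start site (250 before and 50 after), which were at hand for 63 of the 77 members in 68 windows. Motifs were searched on both strands. The NRF1 core GCATGCGC was in 9 of the 68 windows (13.2%) and in 2.71% of all windows. The ETS site CCGGAAG, bound by GABPA among others, was in 22.1% and 8.86%. The YY1 site AAGATGGC was in 14.7% and 2.75%. The receptor site TCAAGGTCA was in 1 window (1.47%), that of Atp5g3, and in 0.423% of all, the hypoxia element TACGTG in 1.47% and 3.23%, and CCAAT in 41.2% and 37.4%. The 29 members higher in dedifferentiated cells than in fibroblasts had 27 windows, of which 3 held the NRF1 core, 4 the ETS site and 3 the YY1 site. The 41 members not called in that comparison had 36 windows, of which 5 held the NRF1 core, 11 the ETS site and 6 the YY1 site. A match is a run of letters and does not show binding.

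The genes around these complexes were described from lists of the same pathway, to be read beside the 25.0% of all genes higher and 22.4% lower in dedifferentiated cells and the 26.1% higher and 22.9% lower in ES cells, against fibroblasts. The list of complex II and electron carriers had 5 of 14 genes higher and 2 lower in dedifferentiated cells, and 5 higher and 3 lower in ES cells, with median differences of 0.13 and 0.17. Cyct, the testis form of cytochrome c, was at 3.28, 3.7 and 4.14 on the fibroblast arrays, at 7.34, 7.22 and 7.49 on the dedifferentiated arrays and at 7.31, 7.48 and 7.3 on the ES arrays. It rose by 3.65 and 3.66 (limma adjusted p = 8e-09 and 7.3e-09), from fibroblast values that lay below the array medians and are likewise not shown to be above background. The common form Cycs differed by -0.14 in dedifferentiated cells (adjusted p = 0.5) and fell by 0.39 in ES cells (adjusted p = 0.049), with overlapping arrays. Gpd2, which feeds electrons from glycerol phosphate into the chain, rose by 1.33 and 0.74, and Dhodh, which does so from pyrimidine synthesis, by 0.99 and 1.01. Etfb and Etfdh, which carry electrons from fatty acid oxidation, fell by 0.51 and 0.54 in dedifferentiated cells and fell by 0.48 and 0.43 in ES cells. The 4 complex II subunits Sdha, Sdhb, Sdhc and Sdhd were not called in any comparison by limma; at an unadjusted p under 0.05, 1 was higher in dedifferentiated cells than in fibroblasts.

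Of 28 measured assembly factors, 17 were higher and 5 lower in dedifferentiated cells, and 16 higher and 8 lower in ES cells, with medians of 0.32 and 0.29. Lrpprc, which stabilises mitochondrial messenger RNA, rose by 1.48 and 0.91, the ATP synthase assembly factor Atpaf1 by 0.97 and 1.21, and the copper chaperone Sco1 by 0.97 and 1. Cox18 fell by 0.86 and fell by 0.27, Cox19 fell by 0.82 and fell by 0.88, and the complex I assembly factor Tmem126b fell by 0.6 and fell by 1.11. Between dedifferentiated and ES cells 4 were higher and 1 lower, where 11.2% of all genes were higher and 10.0% lower. Lrpprc was higher there by 0.58 and Cox18 lower by a difference of -0.59.

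Of 21 measured regulators of mitochondrial biogenesis and oxygen response, 13 were higher and 2 lower in dedifferentiated cells, and 13 higher and 5 lower in ES cells, with medians of 0.6 and 0.55. Esrrb, a pluripotency factor of the oestrogen-related receptors, rose by 5.48 and 5.72, and Tfb1m, which methylates mitochondrial ribosomal RNA, by 2.18 and 2.39. Nrf1, Gabpa and Yy1, whose sites were searched above, rose by 1.15, 0.6 and 0.88 in dedifferentiated cells and by 0.55, 0.62 and 0.57 in ES cells. Hif1a, the oxygen-sensitive subunit of HIF1, fell by 1.47 and fell by 1.72, and Myc fell by 0.84 and fell by 3.16. Epas1, the related HIF2 subunit, rose by 1.32 in dedifferentiated cells (limma adjusted p = 3.6e-06) and fell by 0.38 in ES cells (adjusted p = 0.028). Between dedifferentiated and ES cells 7 of the 21 were higher and 0 lower, where 11.2% of all genes were higher and 10.0% lower. Myc was higher there by 2.31 and Epas1 by 1.71. The coactivator Ppargc1a had group means of 3.25 to 3.45 and was not called.

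Carriers were mixed. Of 9 measured genes for nucleotide and phosphate carriers, uncoupling proteins and outer membrane channels, 3 were higher and 2 lower in dedifferentiated cells, and 2 higher and 3 lower in ES cells. Slc25a4, the heart and muscle form of the ADP/ATP carrier, fell by 0.46 and fell by 0.81, while the channel gene Vdac1 rose by 0.81 and 1.06 and Vdac2 fell by 0.39 and fell by 0.49. Slc25a31, the testis form of the ADP/ATP carrier, rose by 0.3 and 0.41 from a group mean of 3.01 in fibroblasts. This level lay below the array medians and is not shown to be above background. Of the 13 subunits encoded in mitochondria 2, ND3 and COX2, were measured, and limma called neither, with differences between -0.31 and 0.32 and 0 of 2 had an unadjusted p under 0.05 in any comparison.

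**Figure D4:**
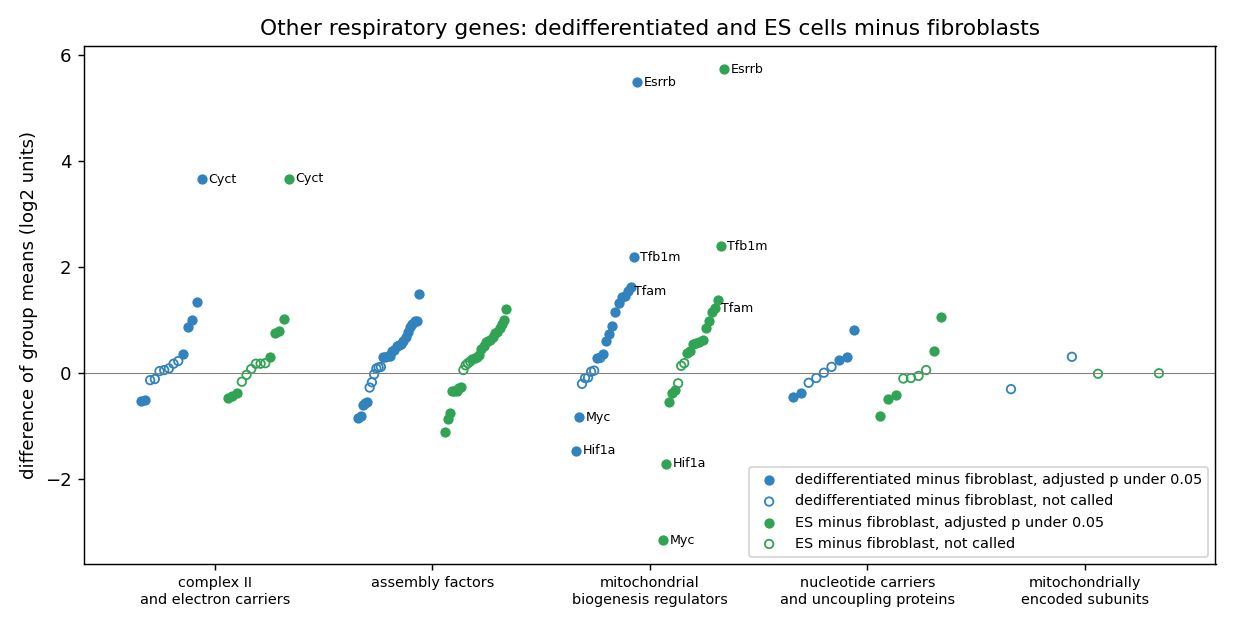
Difference of group means from fibroblasts in log2 units (vertical axis) for the genes of 5 lists of respiratory genes outside the member group (horizontal axis), in blue for dedifferentiated and in green for ES cells. Filled points are called at an adjusted p under 0.05 and open points are not; Cyct stands at 3.65 and 3.66 in the first list and Esrrb at 5.48 and 5.72 in the third.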

How the data were processed

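The authors deposited log2 expression values of 35557 rows for 9 arrays, computed by RMA with Affymetrix Expression Console 1.1 according to the submitters' processing notes. RMA brings the arrays towards a like distribution, which hides a shift common to all transcripts, and it compresses changes of dim genes. The deposited arrays still differed, with medians of 4.647 to 4.859, and a further quantile normalization changed some calls. Rows were named through the platform annotation: 21789 had 1 symbol, and 1621 with several symbols, 6 of them with a subunit symbol, were not used. Members matched the GRCm38.p6 gene table in 77 of 77 cases. All genes entered 1 limma fit (limma 3.58.1, R 4.3.3) of the 3 groups with empirical Bayes moderation.

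The members and lists were chosen with earlier results of these data known. Members were named by a rule: up to 4 called members per complex, direction and comparison with arrays that do not overlap, every called member past 1 log2 unit, the genes of 10 isoform pairs and the steadiest member of each complex. List genes were the 2 largest called rises and falls against fibroblasts, and Epas1, which was among the 2 largest differences between dedifferentiated and ES cells. Called list genes that stood out only between dedifferentiated and ES cells were otherwise not all named. Other genes in the text (Ndufs1, Ndufs3, Ndufs7, Ndufs8, Ndufv1, Ndufb11, Cox7a2l, Cycs, Sdha to Sdhd, Nrf1, Gabpa, Yy1, Ppargc1a, Myh6, Myh7, Sycp3, Ddx4, Tnp1, Prm1, Xist, Eif2s3y) were chosen after their values were seen, as were the groups by role and the motif CCAAT.

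On simulated data with 200 changed genes among 19938, the fit called 5, 7 and 1 of 50 genes changed by 0.3 log2 units in the comparison of dedifferentiated cells with fibroblasts, of ES cells with fibroblasts and of dedifferentiated with ES cells, 24, 26 and 27 of 50 changed by 0.5, and 46, 47 and 46 of 50 changed by 1. In the data far more genes were called, with 4977 higher and 4468 lower in dedifferentiated cells than in fibroblasts. The adjusted threshold is then less strict, so these shares do not carry over to the members. Ndufs7, for example, was called in ES cells against fibroblasts at a difference of 0.22 (limma adjusted p = 0.035). The number of arrays limits the precision.

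Alternatives were another normalization, filters on dim genes, the mean of a gene's rows, other variance settings, array weights, a replicate block, other thresholds, fewer members and leaving out each array.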

Additional observations from a re-analysis of the deposited data

How the results depend on the processing

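Of 129 differences of named members, 104 kept their direction and their side of the threshold under all alternatives that gave a value, and 0 reversed. Filters on dim genes left Cox6a2, Cox8b and other dim members without a value. A further quantile normalization moved the median difference of the members from 0.18 to 0.27 in dedifferentiated cells and from 0.06 to 0.15 in ES cells against fibroblasts, and gave 5 members higher and 5 lower between dedifferentiated and ES cells; array weights gave 7 lower there. The cause was not tested. Requiring at least 1 log2 unit left 2 higher and 1 lower in dedifferentiated cells and 2 higher and 0 lower in ES cells against fibroblasts, and 0 and 0 between dedifferentiated and ES cells, by construction. An adjusted p under 0.01 left 4 higher between dedifferentiated and ES cells. Leaving out each array gave 26 to 32 higher and 6 to 8 lower in dedifferentiated cells, 20 to 27 and 11 to 14 in ES cells, and 4 to 9 and 2 to 3 between dedifferentiated and ES cells; medians ranged from 0.16 to 0.22, 0.03 to 0.09 and 0.06 to 0.11. Of 30 isoform ratios, 5 moved by more than the spread between arrays under a further quantile normalization and kept their sign.

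The replicate numbers were not taken as a pairing of the samples. Deviations of samples with the same number correlated at -0.2 to 0.25, and those with other numbers at -0.24 to 0.32. For fibroblasts and dedifferentiated cells the same-number values were 0.1, 0.15 and 0.04, and those with ES cells ranged from -0.2 to 0.25. Of 9 samples, 2 correlated best with their own number in both other groups. With the replicate number as a block, 29 members were higher and 7 lower in dedifferentiated cells, 24 and 13 in ES cells, and 7 and 3 between dedifferentiated and ES cells. With the block, Ndufa5 was no longer called between dedifferentiated and ES cells (0.28, limma adjusted p = 0.075), and Cox6a2 was called as lower in ES cells, against fibroblasts (-0.24, adjusted p = 0.049).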
